A study of Mus musculus with 12 samples.

Results

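C-type lectin receptors (CLRs) of macrophages were examined in bone marrow-derived macrophages (BMDMs). The set was Mrc1, Clec4d, Clec4e, Clec4n, Clec4a2, Clec5a, Clec7a and Clec10a, 8 of 43131 genes counted. They were chosen by gene name, with earlier results of these data known. Each gene was represented by its transcript with the highest total count, and all 8 passed the filter on low counts in every comparison. Levels are given as CPM, counts scaled to a common library size, after TMM scaling of the 12 libraries.

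CLRs are membrane receptors that recognise carbohydrates and lipids of microbes and of damaged cells through a lectin-like domain. Clec4e (Mincle), Clec4d (MCL) and Clec4n (Dectin-2) signal through the adaptor FcRγ, Clec5a (MDL-1) signals through DAP12, and Clec7a (Dectin-1) carries a signalling motif of its own, and these routes converge on the kinase Syk and the Card9-Bcl10-Malt1 complex. Clec4a2 (DCIR) carries an inhibitory motif that recruits phosphatases, whereas Mrc1 (the mannose receptor, CD206) and Clec10a (MGL1, a receptor for galactose and N-acetylgalactosamine) mainly take up glycoproteins and are commonly used as markers of alternatively activated macrophages.

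The cells came from C57BL/6 mice and were differentiated from bone marrow for 7 days with 50 ng/mL M-CSF. All mice carried floxed tlr4 alleles (tlr4f/f), and those named tlr4f/f-lysM-cre also carried cre under the lysozyme M (lysM, Lyz2) promoter, which deletes tlr4 in myeloid cells. The age of the mice that gave the marrow was not given in the sources used here. Cells of both genotypes were left unstimulated (LPS-) or received 1 µg/mL lipopolysaccharide (LPS), the ligand of TLR4, for 6 h (LPS+). PolyA RNA was sequenced in 3 libraries per group. The groups are called by letter below: group A was headed LPS- tlr4f/f, group B carried the heading LPS- tlr4f/f-lysM-cre, group C that of LPS+ tlr4f/f, and group D that of LPS+ tlr4f/f-lysM-cre. Nothing in the labels ties libraries to separate mice, so p-values measure the spread between these libraries, which may be technical.

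The column headings and the genes that check them disagreed. Tlr4 lay at 76.7, 147 and 120.5 CPM in group A and at 117, 95.1 and 116 CPM in group B, but at 31.1, 27.8 and 24.3 CPM in group C and at 27.5, 24.6 and 24.8 CPM in group D. Lyz2, the gene that supplies the cre promoter, was between 5949 and 23251 CPM in groups A and B and between 10.3 and 75.6 CPM in groups C and D. Il1b, a cytokine gene that LPS induces, was between 1640 and 8218 CPM in group B and group D and at most 6.92 CPM in group A and group C. The headings of groups B and C may therefore be exchanged, and both readings are given. The value of a comparison does not depend on the reading, only its name does. As headed, group A against B and C against D compare the genotypes without and with LPS, and A against C and B against D compare LPS with none within tlr4f/f and within tlr4f/f-lysM-cre. If exchanged, A against B and C against D are the LPS comparisons, within tlr4f/f and within tlr4f/f-lysM-cre, and A against C and B against D compare the genotypes without and with LPS.

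Depth was between 33577087 and 56445268 counts per library. The biological coefficient of variation across genes was 48.1% in group A and 42.6% in group B, against 8.84% and 9.04% in group C and group D. Of 9 macrophage markers, 8 were above 3 counts in every library of group A and 9 in the other groups. From group A to group B 7 of the 9 had a positive log2 fold change, but not Csf1r or Cd68. Csf1r was at 1590 to 2900 CPM in group A and 1038 to 1703.5 CPM in group B. Cd68 was at 711 to 1019 CPM and 613 to 1001 CPM. The summed level of the 9 markers was 6278 to 7608 CPM in group A and 12828 to 14439 CPM in group B. It was 4658 to 4953 CPM in group C and 8552 to 8836 CPM in group D. The summed level of 6 fibroblast and stromal markers was 9.40 to 663 CPM, 186 to 1471 CPM, 20.4 to 25.1 CPM and 44.8 to 56.7 CPM in the same order. Neutrophil markers summed to 192 CPM in the third group B library and to at most 27.9 CPM elsewhere.

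Of the 8 genes, 6 lie on chromosome 6. Clec4a2, Clec4n, Clec4d and Clec4e are 4 of 9 genes of the Dectin-2 cluster, which spans 368 kb (mm10, chr6:122921848-123289870). Clec4d (chr6:123262111-123275265, + strand) and Clec4e (chr6:123281789-123289870, - strand) are neighbours that are transcribed towards each other. Clec7a (chr6:129461591-129472779, - strand) lies in the Dectin-1 cluster 6172 kb further on, and Clec5a (chr6:40574894-40585821, - strand) stands apart from both. Mrc1 is on chromosome 2 (chr2:14229392-14332057, + strand) and Clec10a on chromosome 11 (chr11:70156197-70170834, + strand), 18.6 kb from its paralog Mgl2.

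Promoter windows of 250 bases before the RefSeq start (GRCm38.p6) were available for 6 of the 8 genes. Those of 4 genes are shown: the convergent neighbours Clec4e and Clec4d, Clec5a, whose group means were also highest in the groups with high Il1b, and Clec7a, whose level followed another order. They cover chr6:123289872-123290121 (- strand), chr6:123261857-123262106 (+ strand), chr6:40585806-40586055 (- strand) and chr6:129472780-129473029 (- strand), and capitals mark matches on either strand to the motifs searched.
Clec4e: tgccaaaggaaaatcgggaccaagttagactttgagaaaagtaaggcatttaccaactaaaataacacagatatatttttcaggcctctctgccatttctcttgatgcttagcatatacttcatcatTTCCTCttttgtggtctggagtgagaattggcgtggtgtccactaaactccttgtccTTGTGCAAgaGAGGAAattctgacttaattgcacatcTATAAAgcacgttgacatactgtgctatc
Clec4d: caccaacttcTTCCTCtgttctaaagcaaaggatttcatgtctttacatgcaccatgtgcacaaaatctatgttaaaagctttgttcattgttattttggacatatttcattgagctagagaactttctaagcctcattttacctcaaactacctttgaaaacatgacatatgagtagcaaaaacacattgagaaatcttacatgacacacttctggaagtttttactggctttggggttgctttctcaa
Clec5a: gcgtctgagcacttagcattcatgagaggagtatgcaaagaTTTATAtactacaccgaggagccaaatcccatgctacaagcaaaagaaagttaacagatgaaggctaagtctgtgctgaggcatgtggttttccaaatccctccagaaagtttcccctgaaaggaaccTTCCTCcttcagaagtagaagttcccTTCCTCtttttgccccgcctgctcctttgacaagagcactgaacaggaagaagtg
Clec7a: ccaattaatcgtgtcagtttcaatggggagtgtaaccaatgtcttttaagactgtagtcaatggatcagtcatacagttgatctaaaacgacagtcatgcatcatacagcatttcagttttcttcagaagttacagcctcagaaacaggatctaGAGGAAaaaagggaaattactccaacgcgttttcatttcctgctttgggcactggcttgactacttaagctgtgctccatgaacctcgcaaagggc

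The Clec4e window held a match to the C/EBP motif TTGCNNAA from base 66 to base 59 before the start, matches to the ETS (PU.1) motif GAGGAA at bases 123 to 118 and 56 to 51, and a TATA box (TATAAA) at bases 29 to 24, with no overlap among them. A C/EBP match was present in 9.56% of 32851 promoter windows, an ETS match in 23.3% and a TATA box in 12.4%. Clec4d held 1 ETS match, Clec5a held 2 together with TATAAA on the opposite strand, and Clec7a held 1. The AP-1 motif TGANTCA (6.75% of windows) was found in none of the 6 windows, which says only that these letters are not there. Mrc1 had 3 ETS matches and the only match to the NF-kB motif GGNNTTNCC (13.5% of windows), and Clec4a2 had a match to the STAT motif TTCNNNGAA (7.02% of windows) and TATAAA. The motifs were chosen after the levels were seen.

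**Figure D1:**
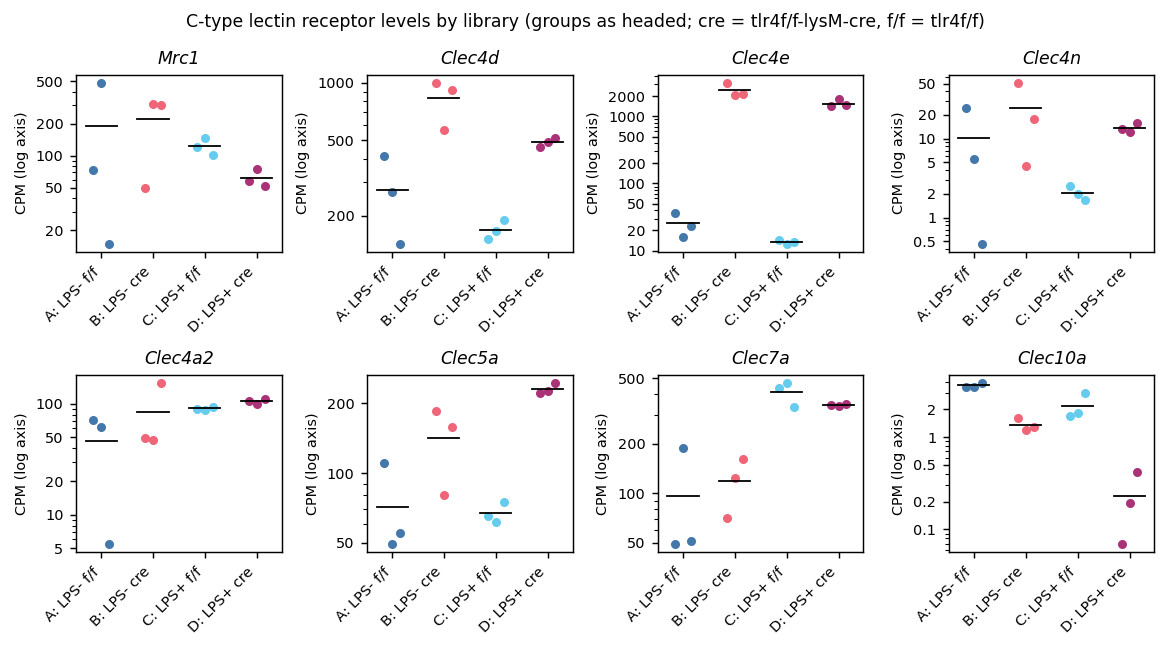
CPM of each receptor gene in each library (log axis, own scale per gene); points are libraries and lines are means of 3. Clec4e separates group B and group D (1413 to 3184 CPM) from group A and group C (12.7 to 36.7 CPM), Clec7a is highest in groups C and D (336 to 469 CPM), and groups A and B hold the widest spreads except in Clec10a.

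Clec4e, the Mincle receptor for mycobacterial cord factor and for a nuclear protein released by dying cells, had the widest ratio between group means of the 8 genes. It was at 36.7, 16.0 and 23.6 CPM in group A, 14.6, 12.7 and 13.5 CPM in group C, 3184, 2064 and 2187 CPM in group B, and 1413, 1787 and 1457 CPM in group D. All libraries in group B and group D were above all in group A and group C. Against group A, Clec4e in group B was higher by 6.60 ± 0.46 (log2 fold change ± SE; edgeR quasi-likelihood test, adjusted p = 5.44e-04), which is the genotype difference without LPS as headed and the LPS difference within tlr4f/f if exchanged. Between group D and group C it was higher by 6.83 ± 0.12 (adjusted p = 1.49e-11), the genotype difference with LPS as headed and the LPS difference within tlr4f/f-lysM-cre if exchanged. Against group A, group D was higher by 5.93 ± 0.38 (adjusted p = 2.61e-04), and this comparison of LPS-treated tlr4f/f-lysM-cre cells with unstimulated tlr4f/f cells has the same name in both readings. In bulk RNA, fewer cells with a transcript and less of it per cell cannot be told apart.

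The remaining differences of Clec4e were small. Its 3 group C libraries were all below the 3 of group A, by a log2 fold change of -0.88 ± 0.30 (adjusted p = 0.144), and those of group D below those of group B, by -0.67 ± 0.21 (adjusted p = 0.0585), and neither passed the test. In the exchanged reading these are the genotype differences without and with LPS. The interaction of genotype and LPS, which is the same number in both readings, was 0.23 ± 0.38 on the log2 scale (adjusted p = 0.77).

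Clec4d, whose product MCL pairs with Mincle, had a narrower range than Clec4e. Its level was 411, 266 and 143 CPM in group A, 1004, 564 and 922 CPM in group B, 151, 166 and 189.9 CPM in group C, and 461, 491 and 516 CPM in group D. The order of the means was group B, group D, group A, group C, with an overlap only between the last 2. From group C to group D it was higher by 1.53 ± 0.08 (log2 fold change, adjusted p = 2.94e-08) and was called, which requires a more than 2-fold difference together with an adjusted p under 0.01. From group A to group B the difference was of like size, 1.60 ± 0.44, with an adjusted p of 0.0298, and was not called; DESeq2 and a fit of all 12 libraries called it. The interaction was -0.07 ± 0.46 (adjusted p = 0.947).

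Clec4n, the Dectin-2 receptor for fungal mannans, was the second lowest member in all 4 groups per kb of transcript. It was at 24.8, 5.49 and 0.467 CPM in group A and 51.4, 4.44 and 18.0 CPM in group B, which overlapped widely, and at 2.49, 1.97 and 1.67 CPM in group C and 13.3, 12.3 and 15.7 CPM in group D, which did not overlap. It was higher in group D than in group C by 2.75 ± 0.16 (log2 fold change, adjusted p = 1.51e-08). Between group B and group A the value was 1.26 ± 1.35 (adjusted p = 0.492). In the fit of all 12 libraries, where the wide spread of groups A and B also enters, the group D against group C difference had an adjusted p of 0.0891.

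**Figure D2:**
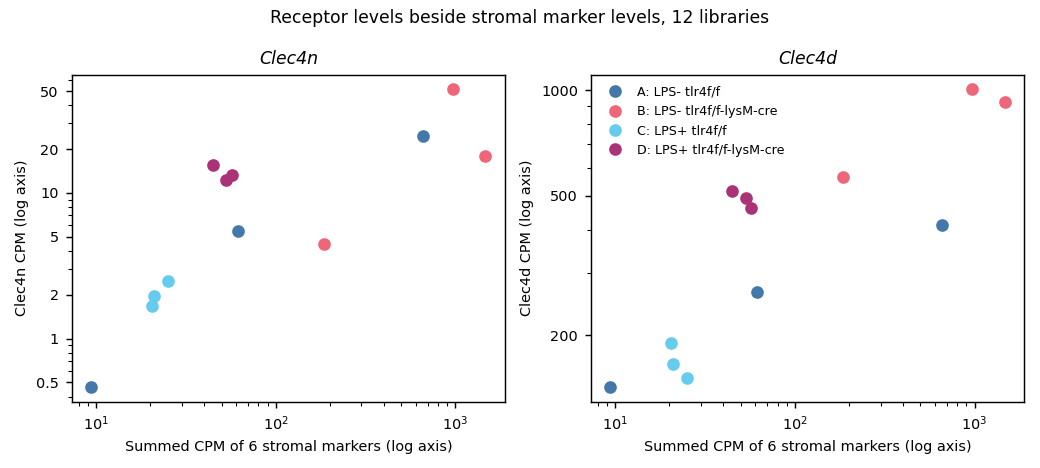
Clec4n (left) and Clec4d (right) CPM against the summed CPM of 6 fibroblast and stromal markers in each library (both axes log). In group A the order of the 3 libraries is the same for the marker sum (9.40 to 663 CPM) and both receptors. Group D lies above group C in both receptors and in the marker sum (44.8 to 56.7 against 20.4 to 25.1 CPM).

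Within group A the order of the 3 libraries in Clec4n and in Clec4d was that of the stromal marker sum, which was 663, 61.3 and 9.40 CPM in libraries 1, 2 and 3. In group B the sum was 967, 186 and 1471 CPM, and library 2 was lowest in the sum, in Clec4n and in Clec4d. The other 2 libraries had the opposite order: library 3 was highest in the sum. Library 1 was highest in Clec4n (51.4 against 18.0 CPM) and in Clec4d (1004 against 922 CPM). Groups C and D were apart in both receptors and in the sum, with group D higher in all 3. The sum was 20.4 to 25.1 CPM in group C and 44.8 to 56.7 CPM in group D. The part of stromal cells in the levels was not tested.

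Clec5a, the DAP12-coupled receptor MDL-1, also separated group D from group C. It was at 110.0, 49.4 and 55.2 CPM in group A, 186, 80.2 and 159 CPM in group B, 65.3, 61.8 and 74.7 CPM in group C, and 222, 227 and 245 CPM in group D. The group D libraries were above all 9 others. The log2 fold change from group C to group D was 1.78 ± 0.07 (adjusted p = 1.06e-09) and that from group A to group D 1.69 ± 0.32 (adjusted p = 0.00835), both called. The second call depended on single libraries and on the processing. With 1 of the 6 libraries left out it remained in 1 of 6 fits, that without the first group A library. With all libraries kept it remained in 3 of 6 other settings. Between group B and group A, which overlapped, the value was 0.98 ± 0.43 (adjusted p = 0.122).

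Clec7a, the Dectin-1 receptor for fungal beta-glucan, followed the LPS+ headings. It was at 49.3, 189.9 and 51.1 CPM in group A, 70.8, 124 and 162 CPM in group B, 435, 469 and 336 CPM in group C, and 346, 341 and 349 CPM in group D. All 6 libraries of groups C and D were above all 6 of groups A and B, which is not the order of Il1b. Groups C and D also had lower Tlr4 and Lyz2 and a narrower spread across genes, and how these relate to Clec7a was not tested. Groups C and D are the LPS-treated cells as headed and the tlr4f/f-lysM-cre cells if exchanged. The log2 fold change from group A to group C was 2.12 ± 0.57 (adjusted p = 0.101) and that from group B to group D 1.54 ± 0.29 (adjusted p = 0.0117). Neither was called in the main edgeR test, whereas DESeq2 called both. The second was also called by edgeR without a filter and in 2 of 6 fits that left out 1 library. The log2 fold change from group C to group D was -0.26 ± 0.11 (adjusted p = 0.0707), and that from group A to group B 0.29 ± 0.60 (adjusted p = 0.726). Itgax, an integrin gene that made up most of the dendritic cell marker sum, was at 35.2 to 261 CPM in groups A and B. In groups C and D it was at 570 to 714 CPM. Other genes of that marker list did not have this order. Xcr1 was at 2.07 to 5.48 CPM in groups B and D and at most 0.314 CPM in groups A and C. Batf3 was at 2.58 to 4.30 CPM in group C and 0.822 to 0.965 CPM in group D. Flt3 and Siglech were at most 0.0551 CPM in any library. How these markers relate to Clec7a was not tested. The annotation lists Clec7a as a polymorphic pseudogene, and the transcript counted is a non-coding record whose count is close to that of the coding one (99.1%).

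Clec4a2, the inhibitory receptor DCIR, differed little between the tighter groups. It was at 72.1, 62.2 and 5.45 CPM in group A, 49.3, 47.5 and 155 CPM in group B, 89.8, 88.7 and 94.4 CPM in group C, and 106, 99.7 and 111 CPM in group D. The third group A library was the lowest of the 12 and the third group B library the highest, and that library also had the highest neutrophil marker sum (192 CPM, most of it S100a8, with Ly6g at 0); its part in the level was not tested. Group D was above group C without overlap, by 0.21 ± 0.06 on the log2 scale (adjusted p = 0.00551), a fold change of 1.16 that is below the call. Clec4a2 has near relatives in the same cluster, so its counts may be shared with them.

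Mrc1, the mannose receptor, spread widely in groups A and B. It was at 74.5, 486 and 15.1 CPM in group A, a range of 32.3 times, and at 50.1, 307 and 302 CPM in group B. In group C it was at 122, 146 and 103 CPM and in group D at 58.6, 76.0 and 52.0 CPM. All group D libraries were below all group C libraries, by -0.997 ± 0.198 on the log2 scale (adjusted p = 0.00787), which is a fold change of 1.996 and just under the fold that a call requires. Leaving out the third group C library or the second group D library gave a call. Between group B and group A the value was 0.18 ± 1.21 (adjusted p = 0.918), and leaving out single libraries turned its sign.

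Clec10a, the galactose-type lectin MGL1, was the lowest of the 8 genes per kb of transcript and fell in group D. It was at 3.52, 3.51 and 3.87 CPM in group A, 1.61, 1.19 and 1.28 CPM in group B, 1.68, 1.82 and 3.03 CPM in group C, and 0.0693, 0.193 and 0.422 CPM in group D. The group D values rest on 3, 7 and 19 counts, and the other groups on 38 to 219 counts per library. No adjacent groups in the order group A, group C, group B, group D overlapped. From group C to group D it fell by 3.23 ± 0.47 on the log2 scale (adjusted p = 1.23e-04) and from group A to group D by 3.97 ± 0.59 (adjusted p = 0.00364). The second call was lost in 2 of 6 fits that left out 1 library, those without the first or the second group D library (adjusted p up to 0.0262), and in the fit with a replicate block. The value from group A to group B was -1.42 ± 0.31 (adjusted p = 0.0138) and that from group B to group D -2.54 ± 0.62 (adjusted p = 0.0265), neither called by edgeR with 6 libraries, whereas DESeq2 called both and the fit of all 12 libraries called the second. Its interaction, -1.81 ± 0.66, had the smallest adjusted p of the 8 genes (0.124).

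**Figure D3:**
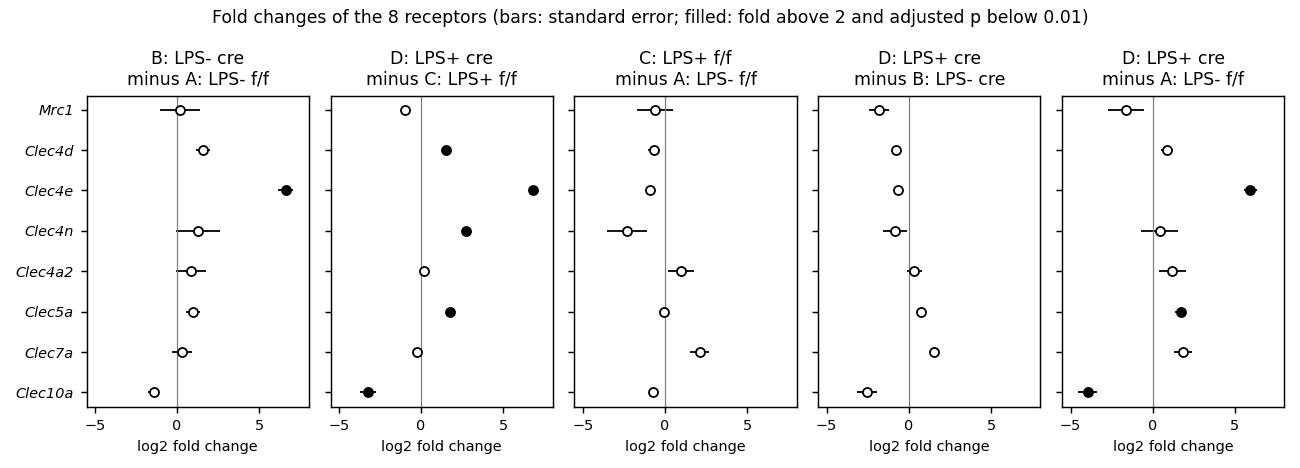
Log2 fold change ± SE of each receptor gene in the 5 comparisons of 6 libraries each; filled points are called. Clec4e is called in 3 comparisons, at 5.93 to 6.83, and none of the 8 genes is called in group C minus group A or in group D minus group B.

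Counted over the 8 genes, group B against group A had 1 call (Clec4e, higher), a share below the 17.1% called of 14635 genes tested (9.25% higher), and the median log2 fold change was 0.91 against -0.08 over all genes. Group D against group C had 5 calls (Clec4d, Clec4e, Clec4n and Clec5a higher and Clec10a lower), where 21.7% of 14540 genes were called (10.8% higher and 10.9% lower), with a median of 0.87 against -0.02. Group D against group A had 3 calls (Clec4e and Clec5a higher, Clec10a lower), where 13.4% of 14584 genes were called (6.92% higher and 6.45% lower), with a median of 1.01 against -0.05.

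In group C against group A none of the 8 genes was called (3 had an unadjusted p below 0.05), nor was any of 14701 genes by edgeR (0%), although 24.7% had an unadjusted p below 0.05; DESeq2 called 1 of the 8 and 467 genes. In group D against group B none of the 8 was called in the main edgeR test, where 6.08% of genes were, and DESeq2 called 3. Of the 8, 5 had an unadjusted p below 0.05 in the edgeR test, as had 40.3% of 14234 genes. The interaction called none of the 8 by edgeR or DESeq2, 1 had an unadjusted p below 0.05 (23.5% of 15775 genes), and edgeR called 1.04% of genes. The groups did not overlap in 3 of the 8 genes between B and A (54.2% of genes tested), in 7 between D and C (67.4%), in 4 between C and A (35.5%), in 5 between D and B (48%) and in 6 between D and A (58%). These comparisons share libraries.

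**Figure D4:**
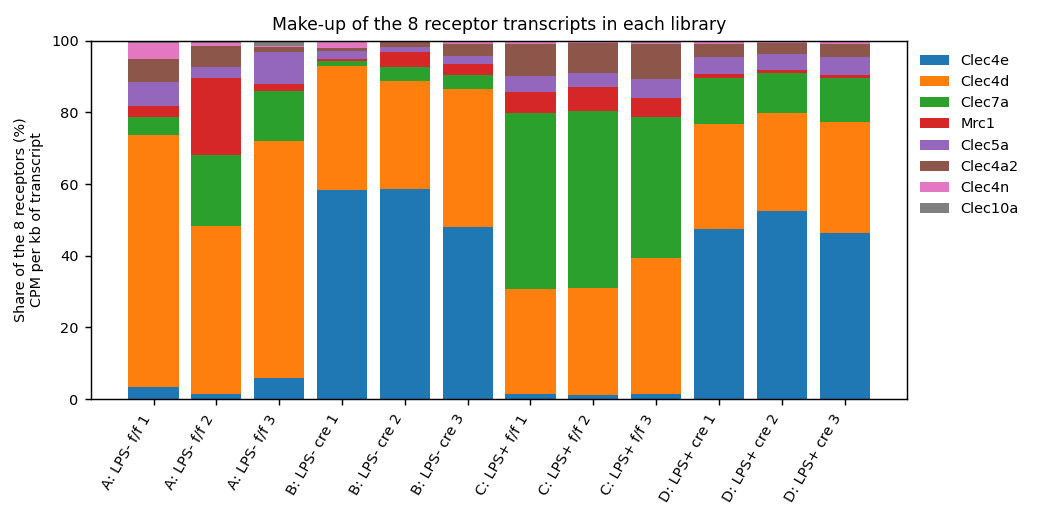
Share of each receptor gene in the sum of the 8 genes, as CPM per kb of transcript, in each library; bars start at 0 and sum to 100%. Clec4e takes 46.4% to 58.6% in group B and group D and 1.21% to 5.83% in group A and group C.

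Per kb of transcript, which allows levels to be compared between genes, the make-up of the set differed by group. The sum of the 8 genes was 341 ± 156 CPM per kb (SD, n = 3) in group A, 1789 ± 384 in group B, 393 ± 21.5 in group C and 1259 ± 85.6 in group D. Clec4d was the first gene in group A (61.2 ± 12.5% of the sum), Clec7a in group C (46.0 ± 5.70%) and Clec4e in group B (55.0 ± 5.97%) and group D (48.8 ± 3.30%). The ratio of Clec4e to its neighbour Clec4d per kb was 0.0319 to 0.0878 in group A, 0.0377 to 0.0512 in group C, 1.26 to 1.94 in group B and 1.498 to 1.93 in group D. Clec10a was last in all 4 groups, with at most 1.60% of the sum in any library.

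The spread between libraries was wider in groups A and B for all members except Clec10a, where groups C and D had the wider spread. Over the 8 genes the median ratio of the highest to the lowest library was 3.37 in group A, 2.30 in group B, 1.33 in group C and 1.19 in group D. The coefficient of variation was above 50% in 8 of 32 gene and group pairs.

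**Figure D5:**
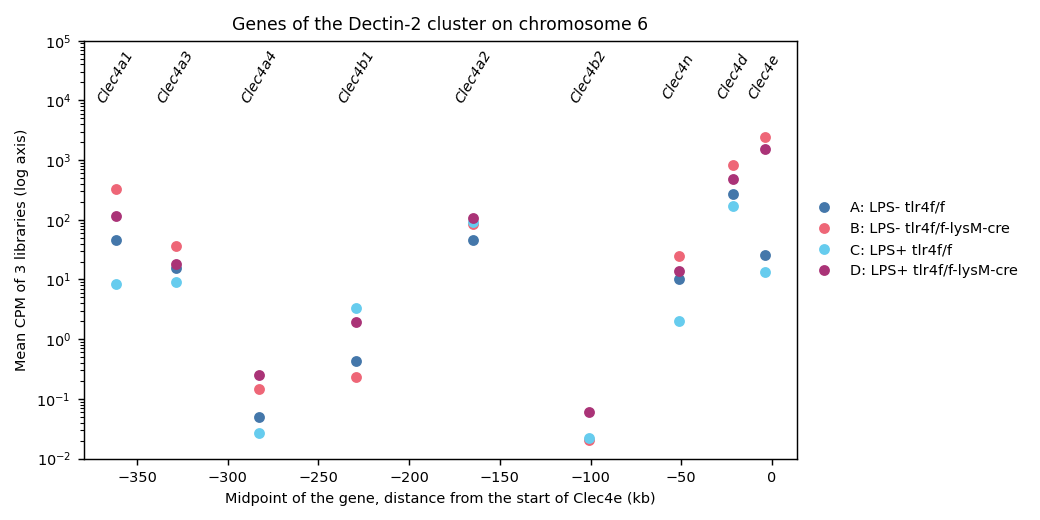
Mean CPM of 3 libraries (log axis) of the 9 genes of the Dectin-2 cluster, against the distance of each gene's midpoint from the Clec4e start. Clec4d and Clec4e, at the right end, reach 830.0 and 2479 CPM in group B; Clec4b2 had no counts in group A and is not drawn there.

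Of the 5 other genes of the Dectin-2 cluster 3 were tested. Clec4a1 (a receptor of the DCIR family) was called in group D against group C, higher by 3.78 ± 0.16 (log2 fold change, adjusted p = 1.19e-06), from 6.69 to 9.76 CPM to 102 to 131 CPM. No gene of this list was called in group B against group A, where 17.1% of all genes were called. Of the 3 tested there, 2 were higher, and 1 did not overlap between the groups, where 54.2% of all genes tested did not overlap. That gene was Clec4a1, higher by 2.85 ± 0.57, from 18.5 to 66.8 CPM to 219 to 512 CPM. Its adjusted p by edgeR was 0.0107, just above the limit for a call. Of 7 genes near Clec7a, Olr1 (the oxidised lipoprotein receptor LOX-1) and Clec2d (an NK receptor ligand) were higher and called in group B against group A (2 of 5 tested) and in group D against group C (2 higher and 1 lower of 7 tested), where 17.1% and 21.7% of all genes were called, with log2 fold changes of 7.39 ± 0.84 and 2.30 ± 0.27 in the first and 7.55 ± 0.31 and 1.90 ± 0.14 in the second. Olr1 had 0 to 10 counts per library in group A, so its fold change is uncertain, and the gene of highest level, Clec12a (an inhibitory receptor for uric acid crystals), was at means of 284 to 429 CPM.

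Among 22 other CLR genes 10 were tested, and the Cd209 family was not among them. In group B against group A, where 17.1% of all genes were called, 3 were higher: Cd69, an early activation antigen, by 9.53 ± 0.36, Ly75 (DEC-205, an endocytic receptor) by 3.77 ± 0.43 and Cd302, another endocytic receptor, by 1.46 ± 0.26. Of the same 10 genes, 4 were higher and 2 lower in group D against C (21.7% of all genes called). Cd69, at 8.72 ± 0.22, and Ly75, at 3.73 ± 0.17, again had the largest values, and Thbd (thrombomodulin) at -1.68 ± 0.15 and Cd93 at -1.34 ± 0.08 were the lower ones.

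Of 26 genes of CLR signalling, 8 were higher and 3 lower in group B against group A, where 17.1% of all genes tested were called, with a median log2 fold change of 0.81. Malt1, the protease of the Card9 complex, was higher by 4.05 ± 0.43, the kinases Src, Lyn and Syk by 3.67 ± 0.51, 2.47 ± 0.18 and 2.45 ± 0.24, and Nfatc2, a calcium-regulated transcription factor, was lower at -3.89 ± 0.37. Of the 26, 9 were higher and 2 lower in group D against C (21.7% of all genes called), with a median of 0.78, and Syk was higher by 2.43 ± 0.05 and Malt1 by 2.10 ± 0.06. The genes with the highest mean levels were Pik3ap1, an adaptor of phosphoinositide 3-kinase (2079 CPM in group B), and Syk (1667 CPM in group B, 304 CPM in group A). Fcer1g, the FcRγ adaptor of Clec4d, Clec4e and Clec4n, was at means of 525 to 1075 CPM and was called in none of the 5 comparisons. In the interaction 2 of the 26 were called, beside 1.04% of all genes tested. These were Card9 at 1.06 ± 0.13 (adjusted p = 0.00244) and Inpp5d, which encodes the phosphatase SHIP1, at 1.38 ± 0.24 (adjusted p = 0.00956).

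Of 14 transcription factor genes linked to CLR expression, 7 were higher and 2 lower in group B against group A and 5 were higher and 5 lower in group D against group C, beside 17.1% and 21.7% of all genes tested. In the first, Nfkb1 was higher by 3.05 ± 0.30, Rel by 2.80 ± 0.28, Cebpb by 2.77 ± 0.25 and Cebpd by 2.64 ± 0.34, and Cebpa was lower at -2.37 ± 0.32. In the second, Cebpd was higher by 3.38 ± 0.09 and Nfkb1 by 2.86 ± 0.06, and Klf4 was lower at -2.51 ± 0.15 and Pparg, which is tied to alternative activation, at -2.47 ± 0.10. In the interaction 1 of the 14 was called, Klf4 at -2.64 ± 0.32 (adjusted p = 0.00244), beside 1.04% of all genes tested. Cebpb and Spi1 (PU.1) had the highest mean levels, 1117 and 1026 CPM in group B.

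Group D against group A has the same name in both readings, and 6.92% of all genes tested were called higher and 6.45% lower. The other genes of the Dectin-2 cluster had 0 calls of 3 tested, and the genes near Clec7a 2 higher calls of 5. The other CLR genes had 3 higher and 2 lower calls of 10. CLR signalling had 7 higher and 3 lower of 26, and the transcription factors 5 higher and 3 lower of 14. None of these genes was called in group C against group A, where 0 of 14701 genes were called. In group D against group B, 6.08% of 14234 genes were called. Of the other Dectin-2 cluster genes 0 of 4 tested were called. Of the genes near Clec7a 1 of 5 tested was called, Olr1, higher by 2.46 ± 0.20, and of the other CLR genes 0 of 10. Of CLR signalling 1 of 26 was called, Src (-1.54 ± 0.15), and of the transcription factors 2 of 14, Cebpb (-1.27 ± 0.13) and Klf4 (-2.14 ± 0.29), all lower.

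Over the 12 libraries, which share 4 groups, the genes most like each receptor in log2 CPM were Gm20559 and Nampt for Clec4e (Pearson r = 0.996 for both), Pilrb1 and Pvr for Clec4d (0.983 and 0.981), 1810055G02Rik and Ppbp for Clec4n (0.962 and 0.959), Tapt1 and Slc4a7 for Clec5a (0.975 and 0.966), Arhgap6 and Tusc3 for Clec7a (0.977 and 0.971), Cd36 and 9430020K01Rik for Clec4a2 (0.978 and 0.971), Mgrn1 and Pla2g5 for Mrc1 (0.947 and 0.926), and Zfp462 and Igsf11 for Clec10a (0.964 and 0.963). Among the 8, r was 0.897 between Clec4d and Clec4e, 0.875 between Clec4d and Clec4n, 0.829 between Clec4e and Clec5a and -0.778 between Clec5a and Clec10a. Clec7a and Clec4e, at -0.0690, showed little relation.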

How the data were processed

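PolyA RNA-seq of 12 BMDM libraries was analysed. The authors trimmed reads with Trimmomatic 0.36, checked them with FastQC, used HISAT2 for the alignment to mm10 and HTSeq for counting; the deposited values are whole-number counts for 115140 transcripts without normalization. Transcripts of a gene share reads, so the transcript with the highest total was kept for each of 43131 genes, and the kit does not mark strand. Libraries were grouped by their headings.

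Tests used edgeR 4.0.16 under R 4.3.3 (TMM, filterByExpr, robust quasi-likelihood fit and test, Benjamini-Hochberg adjustment over all genes tested), with only the 6 libraries compared; the interaction used all 12. A call needed an adjusted p under 0.01 and a more than 2-fold difference. SE was derived from the F statistic. DESeq2 1.42.0 and 5 other settings, and leaving out each library, were tried. Gene positions are from GENCODE M21 and promoters from RefSeq. Named genes were the 8 members, Tlr4, Lyz2 and Il1b, in each pathway list up to 5 called genes of largest fold change per comparison and those of highest level, and for each member the 2 most correlated genes; Fcer1g was added after its values were seen. A gene that this rule names is not reported here. Members and lists were chosen with earlier results of these data known. The counts carry no molecular identifiers, and the SE and p-values measure the spread between these libraries.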

Additional observations from a re-analysis of the deposited data

How the results depend on the processing

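Clec4e kept its calls in group B against group A, group D against group C and group D against group A under every alternative, as did Clec4d, Clec5a and Clec10a in group D against group C; Clec4n there lost its call only in the single fit of 12 libraries. The cause of the changes below was not tested. Members called in group B against group A were 3 by DESeq2 and 2 in the single fit, against 1, and genes 3992 and 4251 against 2497. In group D against group C the single fit called 2045 genes against 3161. In group C against group A DESeq2 called 1 member and 467 genes, no filter 34 genes and the single fit 74, against 0. In group D against group B members were 3 by DESeq2, 1 without a filter and 1 in the single fit, against 0, and genes 2002 by DESeq2 against 865. In group D against group A DESeq2 called 2965 genes against 1950, and in the interaction 657 against 164.

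Leaving out 1 library gave 1038 to 1682 genes in group B against group A, 0 to 184 in group C against group A, 0 to 2 members and 4 to 1178 genes in group D against group B, 1 to 3 members and 592 to 2291 genes in group D against group A, and 10 to 306 genes in the interaction. Fewest were called in group B against group A without group A replicate 2, and in group D against group B 4, 7 and 15 without group D replicate 1, 2 and 3; without group C or group D libraries the interaction had 10 to 21, and without group A replicate 3 group C against group A had 184. In group D against group A, Clec5a was called in 1 of 6 such fits and Clec10a in 4 of 6, not without group D replicate 1 or 2. In group D against group B, Clec7a was called without group B replicate 1 or 3, Mrc1 without replicate 1 and Clec4a2 without replicate 3.

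Signs turned in fits that left out 1 library, whose log2 values ran from -0.37 to 2.27 for Mrc1 (negative without A replicate 1 or 3 or B replicate 2 or 3) and -0.029 to 1.24 for Clec7a (without A replicate 1 or 3) in group B against A, from -1.16 to 1.48 for Mrc1 (without A replicate 2) and -0.27 to 0.40 for Clec5a (without A replicate 1) in group C against A, from -1.33 to 0.28 for Clec4n (without B replicate 1) in group D against B, and from -2.17 to 0.47 for Mrc1 (without A replicate 2) and -0.15 to 2.20 for Clec4n (without A replicate 3) in group D against A. In the interaction they ran from -0.49 to 0.25 for Clec4d (without A replicate 3, B replicate 1 or 3 or C replicate 3), -0.13 to 0.47 for Clec4e (without A replicate 1), -0.29 to 2.62 for Clec4n (without A replicate 1) and -1.09 to 0.15 for Clec4a2 (without B replicate 3). With the replicate block, Mrc1 and Clec5a in group C against A were at 0.62 and 0.031. None of these was called.

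Replicate numbers were not used as pairs in the main tests. Deviations of same-numbered libraries correlated at 0.472, 0.340 and 0.0143 in group B against group A and at 0.190 or less elsewhere. The labels do not say whether a number marks libraries prepared together, and this was not tested. With the number as a block, group D against group B had 212 genes called, group D against group A 1 member (Clec4e) and 922 genes, and group D against group C 6 members, Mrc1 added.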
